A study of Homo sapiens with 6 samples.

Results

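The p53 response genes are 33 genes linked to the tumor suppressor p53, as reported targets or as its regulators. They were picked by gene symbol from a count table of 36601 genes. All 33 symbols were found, 25 of them passed the filter on low values and were tested, and 8 were too low to test. The RNA came from NK-92 cells, a human natural killer (NK) cell line derived from a lymphoma, which stably carried either a control short hairpin RNA (shCtrl, n = 3 libraries) or a hairpin against miR155HG (shmiR155HG, n = 3 libraries). miR155HG is the long non-coding RNA from which miR-155 is processed, and the comparison asks which transcripts differ when it is silenced in stimulated NK cells. Every culture, control included, had received IL-2 at 1000 U/mL together with IL-12 at 10 ng/mL for 12 h, so no library shows unstimulated cells. No DNA-damaging treatment is named, and DNA damage itself was not measured. Each group is a stably transduced line, and the labels do not say whether its 3 libraries came from separate cultures, so the P values measure only the spread between these libraries, which may be technical.

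p53 is a transcription factor that MDM2 and its partner MDM4 hold at a low level, and DNA damage and other stresses free it from them. It binds DNA as a tetramer at a response element made of a pair of 10-base repeats, and its targets stop the cell cycle, repair DNA, adjust metabolism or start apoptosis. Among those targets is MDM2 itself, which closes a negative feedback loop, and several members, including BTG2 and the GADD45 genes, also answer stress kinases and other signals that do not need p53. In T cells the GADD45 proteins are also known as activators of the kinase MEKK4 upstream of p38.

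The response element was searched in RefSeq promoter windows from 250 bases before to 50 bases after each annotated start (GRCh38.p14). A match was allowed up to 2 mismatches, 1 spacer base and no change at the core C and G of each 10-base repeat, and the p53 consensus reads the same on both strands. Of the 29 members with a promoter entry, 3 (10.3%) held a match, against 184 of 27305 genes (0.674%). The members were listed for their link to p53, so the larger share is no result of these libraries. GADD45A, PHLDA3, RRM2B and TP53INP1 had no entry. The match with the fewest mismatches is shown for each of these genes, because it is the stretch of its windows closest to the sequence p53 reads, with the 10-base repeats in capitals and the spacer and flanks in lower case.
MDM2, chr12:68808919-68808946, plus strand: agctGGTCAAGTTCAGACACGTTCcgaa
DDB2, chr11:47214975-47215003, plus strand: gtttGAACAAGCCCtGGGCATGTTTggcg
AEN, chr15:88621302-88621329, plus strand: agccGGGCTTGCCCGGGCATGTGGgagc
The MDM2 match had 2 mismatches, lay in an intron of the canonical GENCODE transcript and began 94 or 101 bases upstream of a pair of its alternative RefSeq starts. The DDB2 match had 0 mismatches around a spacer of 1 base and lay inside the opening exon. A further DDB2 match, with 1 mismatch and 0 spacer bases, overlaps it at chr11:47214969-47214988 and is not printed. The AEN match had 2 mismatches and began 34 bases upstream of the RefSeq start, outside the transcript. The windows of BTG2 and GADD45B held no match, which says only that these letters are not in these windows.

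Since miR155HG is the host transcript of miR-155, the members were also read for the miR-155 site, AGCATTA, which pairs with the seed. The mature miR-155-5p lies at chr21:25573983-25574006 on the plus strand (RefSeq, GRCh38.p14), and its seed, bases 2 to 8, is in capitals.
hsa-miR-155-5p: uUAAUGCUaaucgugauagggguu
The site occurred in the canonical 3′UTR of 6 of the 33 members, with 3 copies in MDM2 and 1 each in APAF1, PPM1D, RCHY1, PERP and TP53INP1. Among tested members it was present in 4 of 25 (16.0%), and among all tested genes with an annotated 3′UTR in 1278 of 10763 (11.9%). The median log2 fold change was −0.03 for members with a site and 0.06 for members without, and it was −0.02 and −0.002 over all tested genes. miR-155 itself was not analysed here.

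The 6 libraries held 33454786 to 39157264 counts, and the levels below are in CPM, counts relative to library size, scaled with TMM factors. At this depth a floor of 3 counts equals 0.0766 to 0.0897 CPM. MIR155HG, the targeted gene, had 73, 67 and 62 counts in the shCtrl libraries and 28, 19 and 10 in the shmiR155HG libraries, and it fell by 1.78 on the log2 scale (SE 0.43 with adjusted P = 0.00450). Of 10 NK cell markers 9 were at 1 CPM or more, with CD7 below, and their summed level was 4190 to 4200 CPM in shCtrl and 3810 to 3950 CPM in shmiR155HG. Of these markers 3 were called higher (IL2RB, TBX21 and EOMES) and 2 lower (GZMB and PRF1). GZMB alone went from a mean of 1195 to 543 CPM, and without it the sum was 2950 to 3030 CPM in shCtrl and 3300 to 3380 CPM in shmiR155HG. The T cell markers CD3D, CD3G and CD4 were near 0 and CD8B was at 0, while the 3 receptor constant genes TRAC, TRBC1 and TRBC2 were present, so the summed T cell list was 373 to 397 CPM in shCtrl and 427 to 460 CPM in shmiR155HG. Summed B cell markers were at most 1.13 CPM in any library, and summed myeloid markers ranged from 12.2 to 20.9 CPM in shCtrl and from 10.7 to 13.9 CPM in shmiR155HG. The part of these marker levels in the results was not tested.

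Of the 25 tested p53 response genes, 4 were higher in shmiR155HG (BTG2, GADD45A, GADD45B and AEN) and 3 were lower (MDM2, CCNG1 and PIDD1), while 18 did not pass an adjusted P of 0.05. These 7 calls are 28.0% of the tested members, beside 15.3% of all 12263 genes tested. In the separate directions, the background over all genes was 7.26% higher and 8.02% lower. The members were split in direction, with 14 positive and 11 negative values and a median log2 fold change of 0.06, beside 0.001 for all genes. For this comparison the paper names p53 signaling among the KEGG pathways that fell most significantly. The members were picked by symbol and not from that pathway, and the KEGG set was not tested here. The median absolute log2 fold change was 0.14 for the members and 0.12 for all genes. The groups did not overlap for 12 of the 25 members (48.0%), of which 7 were higher and 5 lower in shmiR155HG, beside 30.8% of all genes. DESeq2 also called 7 members, while limma-voom and the exact test with adjusted P called 3 higher and 3 lower, without AEN. In bulk RNA, fewer cells that express a gene and less of its RNA per cell cannot be told apart.

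**Figure D1:**
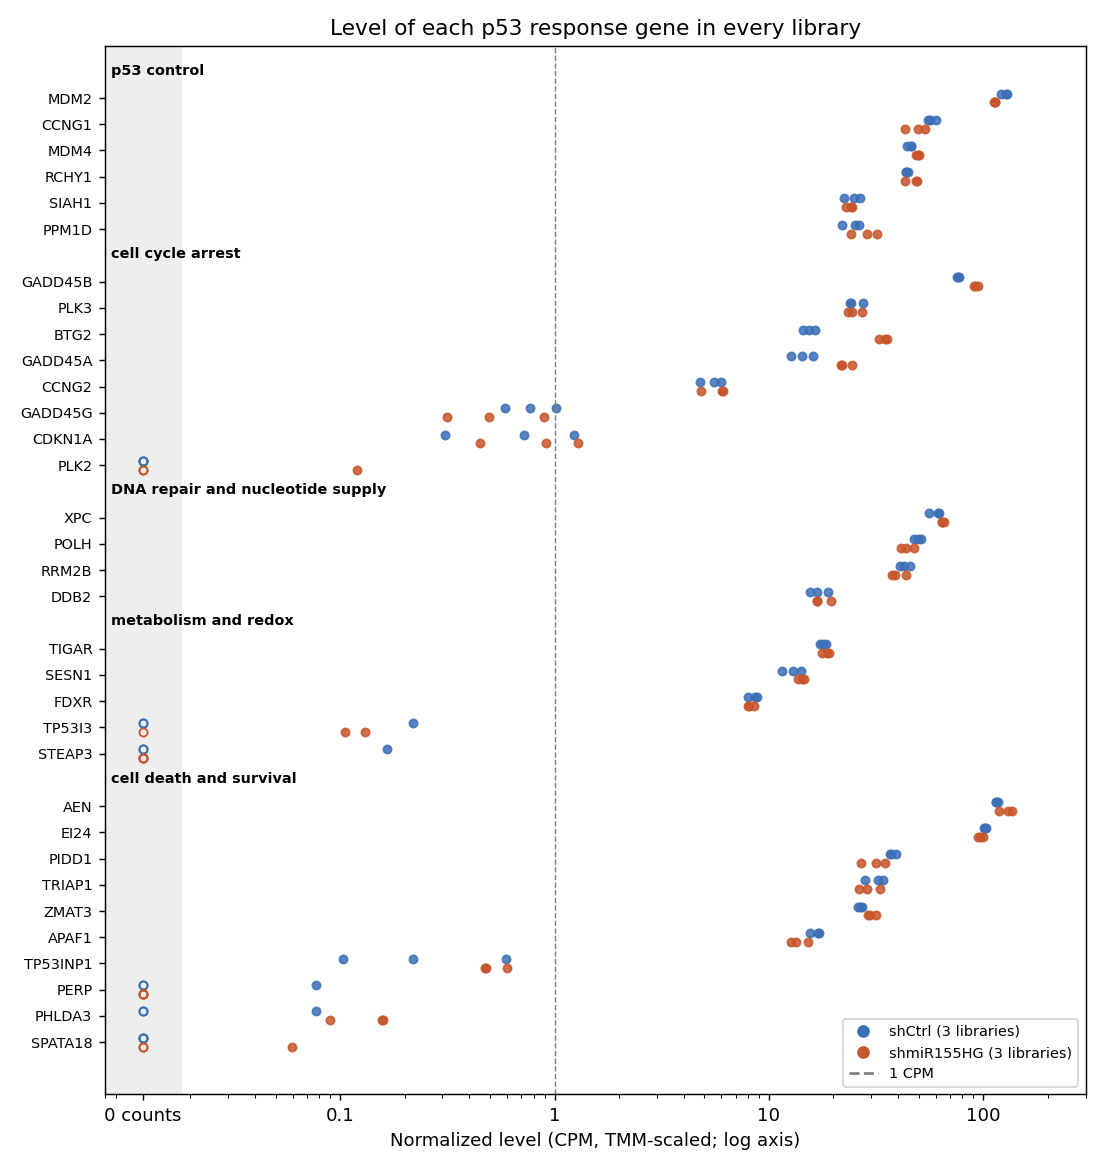
Normalized level of each of the 33 p53 response genes in every library, in CPM on a log axis, with genes grouped by role, shCtrl in blue and shmiR155HG in orange. Open points on the grey strip mark libraries with 0 counts, the dashed line marks 1 CPM, and the 8 untested genes lie at or below about that line while BTG2 and GADD45A show separated groups.

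The plot of levels by library shows the span of the set, from genes above 100 CPM (MDM2, AEN and EI24 in shCtrl) to genes with 0 counts in most libraries. Per kilobase of the canonical transcript, the shCtrl levels were 55.6 CPM for GADD45B, 46.5 for EI24, 37.7 for AEN, 23.4 for CCNG1 and 16.8 for MDM2, but 0.356 for CDKN1A. The spread between replicates was like that of other genes: the median coefficient of variation over the tested members was 5.08% in shCtrl and 6.90% in shmiR155HG, beside 6.38% and 6.14% over all genes tested.

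Among the 6 genes that control p53, 2 fell and 0 rose. MDM2, the ubiquitin ligase that marks p53 for degradation, was at 129.7, 121.0 and 127.3 CPM in shCtrl and at 112.1, 113.5 and 113.6 CPM in shmiR155HG. The 3 shmiR155HG libraries were nearly level with one another and all below the shCtrl libraries, and MDM2 (chr12:68808177-68845544, plus strand) fell by 0.16 on the log2 scale (SE 0.05 with adjusted P = 0.0203), a fold of 0.897. Without single libraries its call was lost in 4 of 6 cases, without shCtrl replicate 1 (adjusted P = 0.0976) and without each shmiR155HG library in turn (0.0693, 0.0637 and 0.0596). Exons of 2 other counted genes, AC025423.4 and the gene named CPM, overlap exons of MDM2 on the opposite strand. Strand use was not given, and the part of this overlap in the MDM2 counts was not tested. Exons of other members, SIAH1, XPC and APAF1 among them, also overlap those of other counted genes, and the same limit holds for their counts.

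CCNG1, the cyclin G1 that brings the phosphatase PP2A to MDM2, was at 56.7, 59.9 and 55.2 CPM in shCtrl and at 43.3, 49.6 and 53.3 CPM in shmiR155HG. The groups did not overlap, though shmiR155HG replicate 3 came within 2 CPM of the lowest shCtrl library. CCNG1 (chr5:163437569-163446151, plus strand) fell by 0.23 (SE 0.07 with adjusted P = 0.0286), a fold of 0.851, and the call was lost without shCtrl replicate 1 (0.0609), shCtrl replicate 2 (0.143), shmiR155HG replicate 1 (0.199) or shmiR155HG replicate 2 (0.0735). Both falls also missed the threshold after a correction for GC content, with log2 fold changes of −0.11 for MDM2 (adjusted P = 0.115) and −0.18 for CCNG1 (adjusted P = 0.0968).

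The other 4 regulators did not pass the test. MDM4, the MDM2 partner that masks p53, was at 46.1, 45.9 and 44.2 CPM in shCtrl and at 48.7, 49.5 and 50.4 CPM in shmiR155HG. Its groups did not overlap, but the log2 fold change was 0.12 (SE 0.07, 95% interval −0.01 to 0.26, adjusted P = 0.229). PPM1D, a phosphatase that switches off p53 and its upstream kinases, was at 24.5 ± 2.27 CPM in shCtrl and 28.3 ± 3.92 CPM in shmiR155HG (SD, n = 3), with a log2 fold change of 0.21 (SE 0.10 with adjusted P = 0.189). Both values were opposite in sign to that of MDM2, and the difference between the genes was not tested. The ubiquitin ligases RCHY1 and SIAH1, which are both p53 targets, had log2 fold changes of 0.10 (SE 0.07 with adjusted P = 0.410) and −0.05 (SE 0.10 with adjusted P = 0.777).

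**Figure D2:**
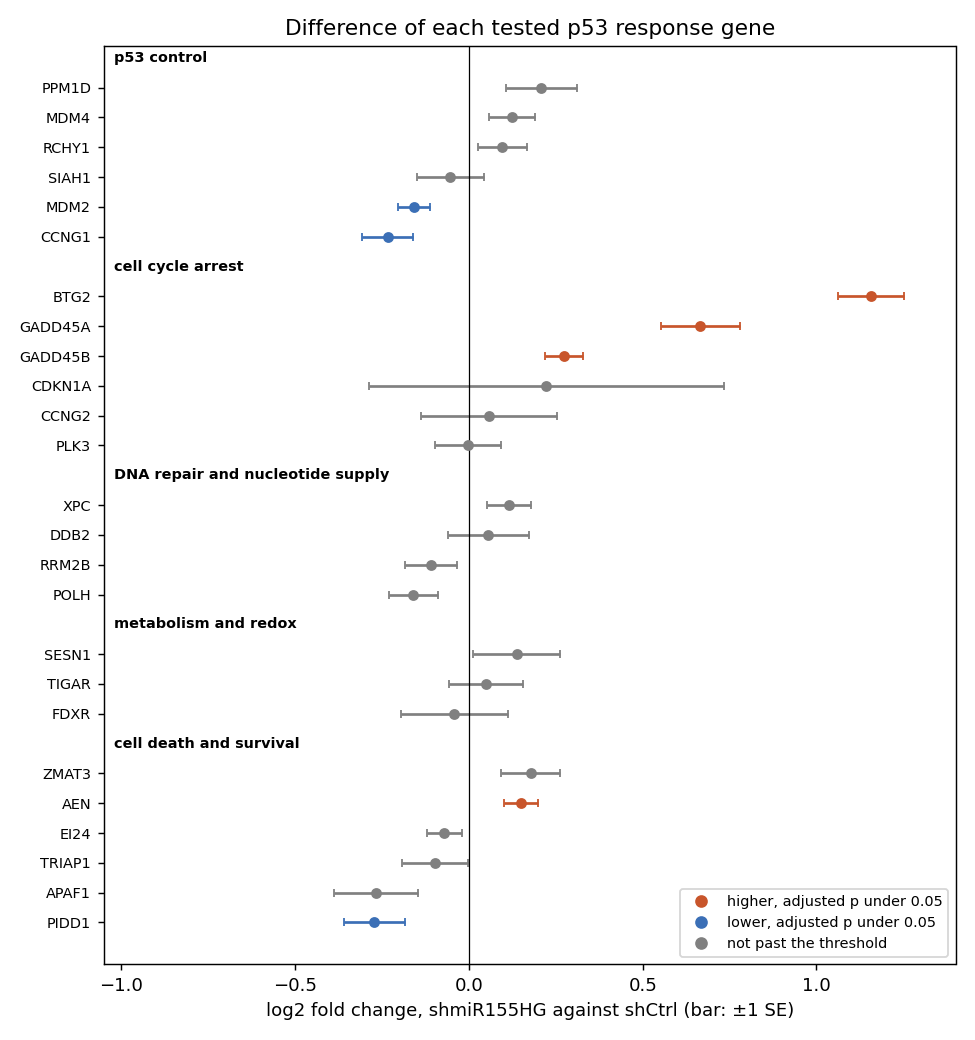
Log2 fold change of each of the 25 tested p53 response genes, shmiR155HG against shCtrl, by role (point, estimate; bar, ±1 SE). Orange marks the 4 genes higher and blue the 3 lower at an adjusted P under 0.05, grey the 18 others; BTG2 at 1.16 and GADD45A at 0.67 lie apart from the rest.

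Of the 8 cell cycle arrest genes 6 were tested, 3 rose and 0 fell. BTG2, an antiproliferative protein that recruits the CCR4-NOT deadenylase to messenger RNAs, was at 15.4, 14.4 and 16.4 CPM in shCtrl and at 34.8, 35.7 and 32.6 CPM in shmiR155HG. The lowest shmiR155HG library was far above the highest shCtrl library. The log2 fold change was 1.16 (SE 0.09 with adjusted P = 6.84e-10), a 2.23-fold higher level and the largest difference among the tested members. The gene lies at chr1:203305491-203309602 on the plus strand, and no exon of another counted gene overlaps it.

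GADD45A, a small protein that binds PCNA and CDK1 and acts at the G2/M boundary, was at 12.7, 16.1 and 14.2 CPM in shCtrl and at 22.0, 24.5 and 21.6 CPM in shmiR155HG. All shmiR155HG libraries were above all shCtrl libraries, and the log2 fold change was 0.67 (SE 0.11 with adjusted P = 0.000123), which is 1.59-fold. The gene lies at chr1:67685201-67688334 on the plus strand.

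GADD45B, the family member induced by cytokines that supports interferon-γ production through MEKK4 and p38, was at 76.8, 75.3 and 76.6 CPM in shCtrl and at 94.9, 91.6 and 90.1 CPM in shmiR155HG. The shCtrl libraries were tightly grouped at 76.2 ± 0.847 CPM and the shmiR155HG libraries stood at 92.2 ± 2.42 CPM (SD, n = 3), without overlap. The difference was small but larger than this spread, with a log2 fold change of 0.27 (SE 0.05 with adjusted P = 0.000637), or 1.21-fold. GADD45B (chr19:2476122-2478259, plus strand) was the most abundant of the family on a per-kilobase scale, at 55.6 CPM in shCtrl and 67.2 CPM in shmiR155HG, beside 10.6 and 16.8 CPM for GADD45A. GADD45G, which shares the MEKK4 role, was at 0.743 and 0.534 CPM per kilobase and was not tested, with 30, 37 and 23 counts in shCtrl and 19, 12 and 30 in shmiR155HG.

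The other cell cycle genes that were tested gave no call. CDKN1A, which encodes the CDK inhibitor p21 and is the best-known arrest gene of the p53 response, had 28, 45 and 12 counts in shCtrl and 35, 17 and 43 in shmiR155HG. It passed the filter through 2 libraries, 1 of each group, and the libraries overlapped fully. Its log2 fold change was 0.22 with an SE of 0.51 and a 95% interval from −0.82 to 1.27 (adjusted P = 0.832), so neither a rise as large as that of GADD45A nor a fall of that size was detectable at this depth. PLK3, a polo-like kinase of the stress response, had 25.1 ± 2.02 CPM in shCtrl and 25.1 ± 1.97 CPM in shmiR155HG (SD, n = 3), with a 95% interval of the log2 fold change from −0.20 to 0.19. CCNG2, an atypical cyclin linked to arrest, was at 5.42 ± 0.603 and 5.65 ± 0.731 CPM, with an interval from −0.34 to 0.46.

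**Figure D3:**
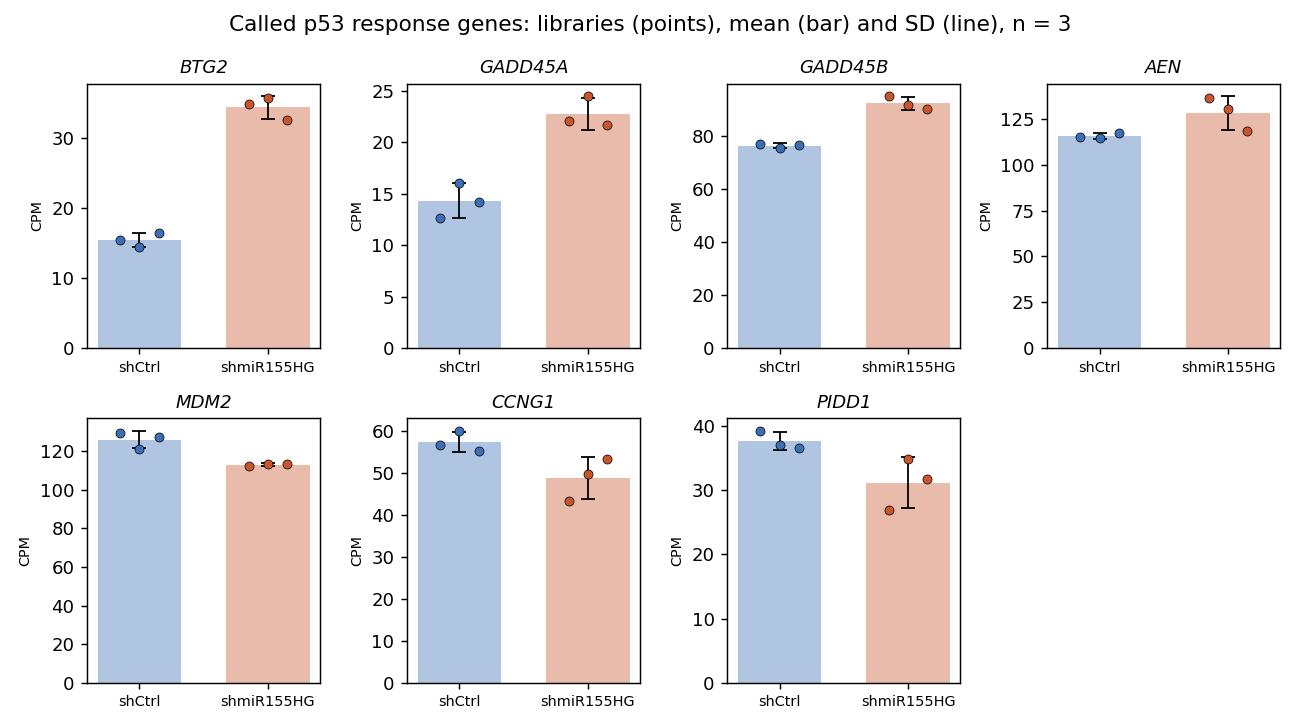
CPM of the 7 called p53 response genes in each library (points), with the group mean (bar, from 0) and SD (line), n = 3 libraries per group. BTG2 goes from 15.4 to 34.3 CPM, while AEN, MDM2, CCNG1 and PIDD1 differ by 1.11-fold or by folds of 0.828 to 0.897.

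None of the 4 genes of DNA repair and nucleotide supply passed the edgeR test (0 by DESeq2), and 1 had an unadjusted P under 0.05. XPC and DDB2 recognise lesions in nucleotide excision repair. XPC was at 55.8, 61.2 and 62.0 CPM in shCtrl and at 65.5, 64.3 and 64.1 CPM in shmiR155HG, and although the groups did not overlap, the log2 fold change was 0.12 (SE 0.06 with adjusted P = 0.244). DDB2, whose promoter match printed above had 0 mismatches, was at 17.0 ± 1.66 and 17.7 ± 1.55 CPM (SD, n = 3), with a log2 fold change of 0.06 (SE 0.12, 95% interval −0.18 to 0.29, adjusted P = 0.808).

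POLH, the polymerase that copies past ultraviolet damage, was at 49.3 ± 1.93 CPM in shCtrl and 44.2 ± 3.24 CPM in shmiR155HG (SD, n = 3). Its log2 fold change was −0.16 (SE 0.07, unadjusted P = 0.0333, adjusted P = 0.140). RRM2B, the p53-inducible small subunit of ribonucleotide reductase, had a log2 fold change of −0.11 (SE 0.08 with adjusted P = 0.385).

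The metabolic and redox genes were likewise without a call: 0 of 3 passed the edgeR test, 0 passed DESeq2 and 0 had an unadjusted P under 0.05. SESN1, a sestrin that restrains mTORC1, was at 12.9 ± 1.28 CPM in shCtrl and 14.2 ± 0.426 CPM in shmiR155HG (SD, n = 3), a log2 fold change of 0.14 (SE 0.13). TIGAR, a fructose bisphosphatase that lowers glycolytic flux, was at 17.9 ± 0.541 and 18.5 ± 0.648 CPM, a log2 fold change of 0.05 (SE 0.11). FDXR, the mitochondrial ferredoxin reductase, was at 8.46 ± 0.409 and 8.22 ± 0.286 CPM, a log2 fold change of −0.04 (SE 0.15). The intervals of the difference ran from −0.12 to 0.40 for SESN1, from −0.17 to 0.27 for TIGAR and from −0.36 to 0.27 for FDXR.

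Of the 10 cell death and survival genes 6 were tested, 1 rose and 1 fell. AEN, an exonuclease that takes part in apoptosis, was at 115.3, 114.5 and 117.3 CPM in shCtrl and at 136.2, 130.5 and 118.4 CPM in shmiR155HG. The groups did not overlap, but shmiR155HG replicate 3 was only just above the highest shCtrl library. AEN (chr15:88621337-88632281, plus strand) had a log2 fold change of 0.15 (SE 0.05 with adjusted P = 0.0409), or 1.11-fold. Its call was lost without shCtrl replicate 1 (0.0885), shCtrl replicate 2 (0.129), shmiR155HG replicate 1 (0.242) or shmiR155HG replicate 2 (0.152), with a replicate block (0.0578), with the filterByExpr filter (0.0656), in the exact test (0.0518), in limma-voom (0.0584), and after the GC correction, where the log2 fold change was 0.08 (adjusted P = 0.295).

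PIDD1, the death domain protein that assembles the caspase-2 platform called the PIDDosome, was at 39.2, 37.0 and 36.6 CPM in shCtrl and at 26.9, 34.8 and 31.7 CPM in shmiR155HG. The groups did not overlap, and shmiR155HG replicate 1 was the lowest library. PIDD1 (chr11:799179-809753, minus strand) fell by 0.27 (SE 0.09 with adjusted P = 0.0329), a fold of 0.828, and the call was lost without shCtrl replicate 1 (0.122), shCtrl replicate 2 (0.0811), shmiR155HG replicate 1 (0.215) or shmiR155HG replicate 3 (0.0769). After the GC correction the call was kept, with a log2 fold change of −0.40 (adjusted P = 0.00146).

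APAF1, the scaffold of the apoptosome, was at 15.5, 16.9 and 17.2 CPM in shCtrl and at 12.6, 15.2 and 13.3 CPM in shmiR155HG. The groups did not overlap and the estimate, −0.27 (SE 0.12), was as large as that of PIDD1, but the unadjusted P of 0.0354 became 0.146 after adjustment. ZMAT3, an RNA-binding protein of the p53 response, was at 26.6 ± 0.517 CPM in shCtrl and 30.1 ± 1.31 CPM in shmiR155HG (SD, n = 3), with a log2 fold change of 0.18 (SE 0.09, unadjusted P = 0.0465, adjusted P = 0.175). EI24, an endoplasmic reticulum protein of autophagy, and TRIAP1, an inhibitor of apoptosis, had log2 fold changes of −0.07 (SE 0.05 with adjusted P = 0.393) and −0.10 (SE 0.09 with adjusted P = 0.558).

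The remaining untested members had low counts, and all but TP53INP1 had 8 or fewer in every library. In shCtrl and shmiR155HG respectively, TP53INP1, a stress protein of autophagy, had 23, 8 and 4 counts and 23, 18 and 16 counts. PHLDA3, an inhibitor of AKT, had 0, 0 and 3 counts and 6, 6 and 3 counts. TP53I3, a quinone oxidoreductase, had 0, 8 and 0 counts and 5, 4 and 0 counts.

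STEAP3, a ferrireductase, had 6 counts in shCtrl replicate 2 and 0 in the other libraries, and PERP, a desmosome protein, had 3 counts in shCtrl replicate 3 and 0 elsewhere. The kinase PLK2 and the mitochondrial quality protein SPATA18 were seen only in shmiR155HG replicate 3, with 4 and 2 counts. For the 6 of these genes that had 8 counts or fewer in every library, no difference was detectable at this depth. With no filter on low values all 33 members were tested, and the 8 genes had adjusted P values from 0.448 to 0.992.

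**Figure D4:**
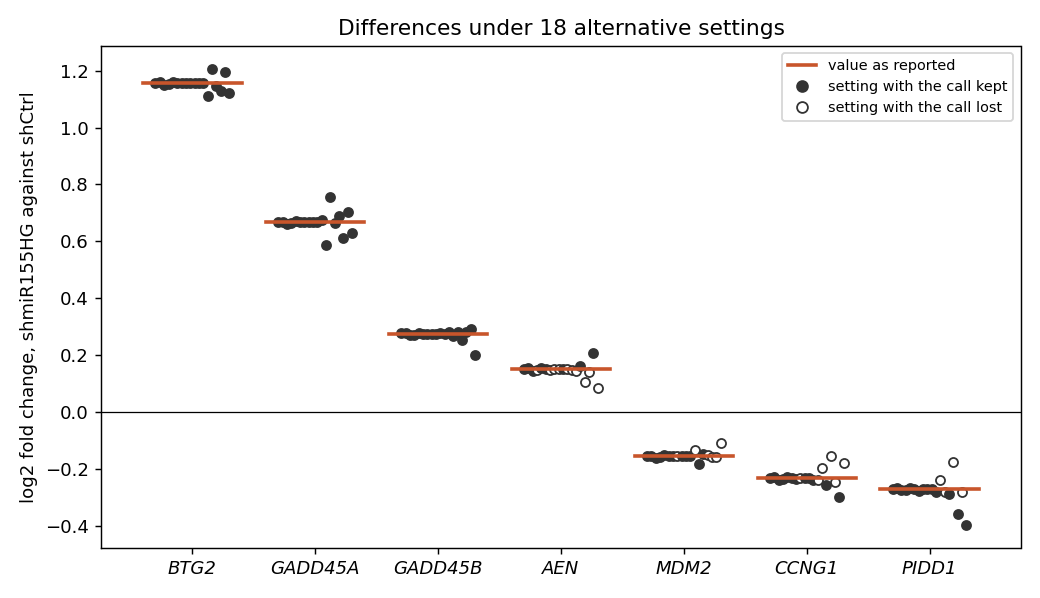
Log2 fold change of the 7 called p53 response genes under 18 alternative settings (points; filled where the call was kept, open where it was lost), with the reported value as an orange line. The points of BTG2, GADD45A and GADD45B are all filled, and those of the other 4 genes are partly open.

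The calls differed in how they held up. Under all 18 alternative settings BTG2, GADD45A and GADD45B were called higher, with log2 fold changes from 1.11 to 1.21, from 0.59 to 0.76 and from 0.20 to 0.29. AEN, MDM2, CCNG1 and PIDD1 kept their direction throughout, but each lost its call in 4 of the 6 settings that left out a library. The rule of the study, an unadjusted P under 0.01 in the exact test with a fold over 1.2, was also applied here. By this rule BTG2, GADD45A and GADD45B were higher and PIDD1 was lower.

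Other genes of the p53 pathway were taken from 5 lists of 61 genes, of which 46 were tested, 3 were higher and 8 lower (23.9%). This share stands beside 15.3% of all genes tested, and 7 of the 11 calls were in the list of cyclins and CDKs. Among p53 family and upstream genes 0 of 10 were higher and 2 were lower. These were ATM, the kinase that senses double-strand breaks (83.1 ± 3.52 against 71.5 ± 1.51 CPM, log2 fold change −0.22, SE 0.06 with adjusted P = 0.00919), and PRKDC, the catalytic subunit of DNA-dependent protein kinase (1660 ± 67.9 against 1441 ± 67.2 CPM, −0.20, SE 0.03 with adjusted P = 9.33e-05).

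Among further p53 targets 1 of 16 was higher and 1 lower. GTSE1, a G2 and S phase protein that moves p53 out of the nucleus, had a log2 fold change of 0.20 (SE 0.05 with adjusted P = 0.00419). TNFRSF10A, the TRAIL receptor 1, fell by 0.72 (SE 0.21 with adjusted P = 0.0153), from 6.66 ± 1.07 to 4.03 ± 0.632 CPM (SD, n = 3). Of 8 genes of the death machinery 0 passed the edgeR test (1 at an unadjusted P under 0.05, 0 by DESeq2), and of 2 tested growth signalling genes 0 passed (0 unadjusted, 0 by DESeq2).

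Among the cyclins and CDKs 2 of 10 were higher and 5 lower. CCNE2, a cyclin of the G1/S step, fell by 0.71 (SE 0.07 with adjusted P = 1.12e-08), from 74.9 ± 5.59 to 45.7 ± 1.96 CPM (SD, n = 3). CDK1, the mitotic kinase that GADD45 proteins bind, fell by 0.39 (SE 0.05 with adjusted P = 3.19e-06). CCND3, CDK2 and CDK6 fell by 0.35, 0.30 and 0.19.

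The 2 higher genes, named after their values were seen, were CCND2 (0.17, SE 0.04) and CCNB1 (0.14, SE 0.04). Other lists were measured beside the rise of BTG2, GADD45A and GADD45B. Of 13 S-phase genes 8 were lower and 0 higher. Their summed level was 5810 to 6030 CPM in shCtrl and 5210 to 5240 CPM in shmiR155HG. Of 26 tested replication-dependent histone genes 14 were higher and 0 lower. This histone list served as a check on RNA that lacks a poly(A) tail, as poly(A) RNA was sequenced. Whether its rise reflects expression in the cell cycle or the capture of such RNA was not tested. The part of these lists in the values of the p53 response genes was not tested.

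**Figure D5:**
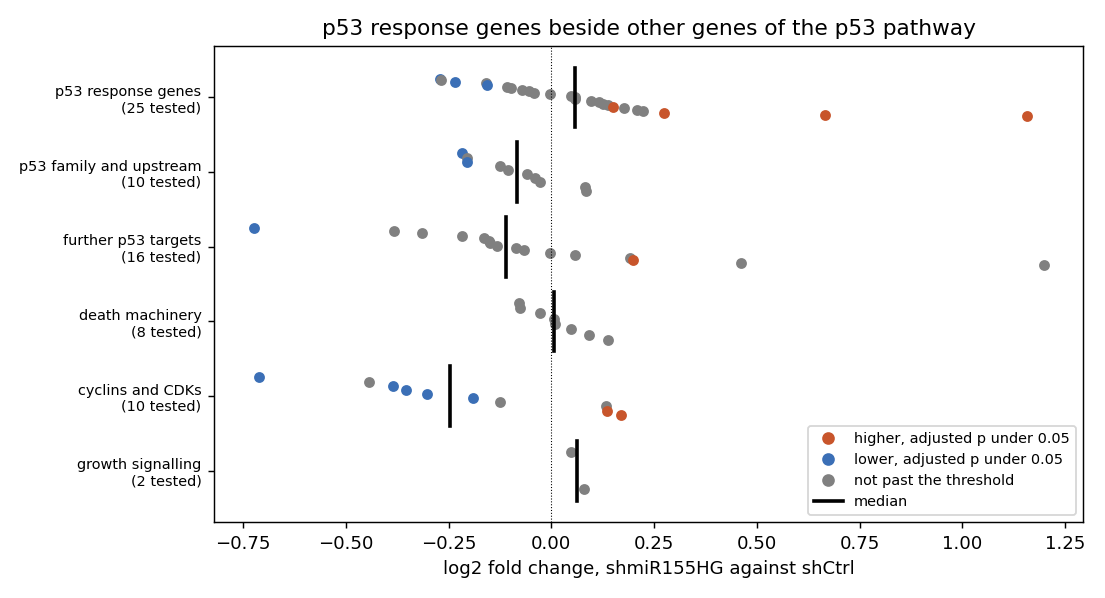
Log2 fold change of the 25 tested p53 response genes and of 5 lists of other p53 pathway genes (points, 1 per gene; bar, list median), coloured by call. The cyclins and CDKs have 5 of 10 points lower, and no other list holds a gene higher by as much as BTG2 that passed the test.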

How the data were processed

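The authors deposited gene counts for 6 libraries of NK-92 cells, whole numbers without normalization. Per the labels and the methods of the study, poly(A) RNA was sequenced as paired reads and aligned to hg38 with HISAT2. Read counts on reference transcripts were then obtained with StringTie and merged with prepDE.py3. Strand use was not given in the sources used here, and 53.4% of counts from 1 to 59 were even, so reads may in part be counted more than once. For shmiR155HG replicates 2 and 3 the treatment field spells the gene with another number, and the group was taken from their titles.

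Counts were analysed in R 4.3.3. The filter kept 12263 genes that exceeded 1 CPM in 2 or more libraries, counts were scaled with TMM (factors 0.9966 to 1.003), and groups were compared with edgeR 4.0.16 (quasi-likelihood test, robust, Benjamini-Hochberg adjusted P under 0.05 over all genes tested). This two-sided test gives every adjusted P of a gene unless another is named, and 95% intervals use the SE and the t distribution with the moderated degrees of freedom of the fit. Levels per kilobase use the canonical GENCODE v44 transcript and may differ from the annotation of the study. Alternatives were DESeq2 1.42.0, limma 3.58.1 voom, the exact test, other filters and scalings, halved counts, a replicate block and each library left out. A correction for GC content was chosen after seeing the data. Same-numbered libraries did not deviate together (correlations of −0.013, 0.012 and 0.02 across genes), so the numbers were not used as pairs.

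The members and all gene lists were chosen with earlier results of these data known. All members and MIR155HG are named, and per pathway list the called genes up to the 5 of largest absolute change. A gene of the pathway lists is not reported here. The methods were tested on simulated data. Counts come from reads without molecular identifiers, so floors cover counting error only.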

Additional observations from a re-analysis of the deposited data

How the results depend on the processing

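The 4 members called higher and 3 called lower were recomputed under 18 alternatives, and the median over all genes stayed within 0.016 of 0 in each. Leaving out single libraries gave 3 to 4 members higher and 0 to 3 lower, with 0 lower without shCtrl replicate 1 or shmiR155HG replicate 1. The rule of the study, as applied here, gave 1 member lower, 0 other pathway genes higher and 5 lower, and 551 and 466 of all genes. These totals are below those the paper reports in each direction. Calls by this rule are therefore those of the re-analysis and may differ from the study's own. The GC correction gave 1 member lower. Over the 25 tested members and MIR155HG, 428 single values kept direction and call, 26 kept direction and lost the call, and 10 changed sign, all of genes that were not called. Other pathway genes (3 higher, 8 lower) ranged over 3 to 5 higher, with 5 without shCtrl replicate 2 or 3, and 7 to 10 lower without single libraries, and all genes over 580 (without shmiR155HG replicate 2) to 891 higher and 674 to 917 lower. The sign of PLK3 turned with total counts (0.00027) and a mean of at least 5 CPM (0.0017). Without single libraries, PLK3 ranged from −0.064 to 0.068, CCNG2 from −0.024 to 0.16, CDKN1A from −0.15 to 0.54, DDB2 from −0.018 to 0.14 and SIAH1 from −0.12 to 0.0098. The cause was not tested.

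With the replicate number as a block, 3 members were higher and 3 lower, AEN being the call that was lost (log2 fold change 0.15, adjusted P = 0.0578), and 829 and 909 of all genes were called. The block changed no other call among the members and MIR155HG.

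The filter removed MIR155HG at a mean of at least 5 CPM, and CDKN1A in 3 settings, so they have no value there. Depth limits the 8 untested members, whose counts were 37 or fewer in every library, and CDKN1A, whose SE of 0.51 is the largest of the tested members.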
